A study of Mus musculus with 12 samples.

Results

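The 9 genes described here, *Thbs1*, *Crim1*, *F3*, *Axl*, *Ankrd1*, *Nuak1*, *Nuak2*, *Cit* and *Shank2*, were grouped as direct targets of the transcriptional coactivator YAP outside the CCN family. Whether YAP acts directly on each of the 9 genes in these cells was not tested. They were chosen by name, and all 9 of them were found among the 56980 genes of the deposited matrix and were among the 17691 that passed a minimum total of 10 counts and were tested. *Shank2*, *Cit* and *Nuak2* were also picked out by the study from these same libraries, so the differences of these genes between the cell lines are not independent evidence. The study's text places them among genes that it mostly describes as regulators of Hippo or YAP. The libraries measure RNA, and binding of YAP to the genes was not measured in them.

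RNA-Seq libraries were made from the murine bone marrow stromal line W-20 (W-20-17 in the labels), as unmodified (WT) cells and as Y428F cells, which stably express a Flag-tagged YAP with the Y428F substitution (tyrosine to phenylalanine). Each line was exposed for 2 hours to 50 nM parathyroid hormone (PTH) or to the same volume of the PBS vehicle, with 3 libraries in each of the 4 groups. The Y428F libraries carry that name in their titles while their genotype label reads WT, and the study's mutant cells were positive clones selected with puromycin, of which the number is not given in the sources used here. The study's account of its RNA-Seq names the mutant cells as carrying S381A (serine to alanine) together with Y428F, while the titles give Y428F alone. Phosphorylation of that serine by LATS kinases marks YAP for degradation, and the alanine prevents it. No libraries of cells with a control YAP plasmid or with S381A alone were analysed here, so the effects of either substitution, of the added YAP, of selection and of clonal history cannot be told apart. RNA counted to *Yap1* was lower in Y428F cells with vehicle (146.5 CPM against 188.8 CPM in WT cells, log2 fold change -0.37). Totals per library lay between 17127897 and 19057319 counts (median 17740980). Levels are given in CPM, which are counts scaled to a common library size with TMM factors, and 1 CPM stood for 16.3 to 19.8 counts in a library. Nothing in the labels says that the 3 libraries of a group came from separate cultures, so p-values measure the spread between these libraries, which may be technical. In bulk RNA, fewer cells that express a gene and less RNA per cell cannot be told apart.

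YAP and its paralog TAZ carry no DNA-binding domain of their own and act mainly through the TEAD transcription factors. When the kinases of the Hippo pathway phosphorylate YAP, it is held in the cytoplasm or degraded, and when they are inactive it enters the nucleus and its target genes are transcribed. In stromal and osteoblast lineage cells YAP responds to cell shape, tension and adhesion, and several of its targets encode matrix, membrane and actomyosin proteins. The labelled cell type was checked against 10 stromal marker genes. *Col1a2* was the most abundant of them (12830 CPM in WT cells with vehicle), *Col1a1*, *Pdgfrb* and *Cxcl12* were also high, *Lepr* was near 0 and *Thy1* was at 0 in all 12 libraries. Between the lines with vehicle, 7 of the 9 tested stromal markers were lower in Y428F cells and 2 were higher (*Ly6a* and the scarce *Lepr*), where 22.7% of all genes tested were called lower and 22.4% higher. Summed levels of the stromal markers with vehicle were 20090 to 23660 CPM in WT cells and 14090 to 15150 CPM in Y428F cells. Whether this difference has a part in those of the 9 genes was not tested. The summed markers of blood, endothelial, striated muscle and neuronal cells were below 10 CPM in every library, and the endothelial *Cdh5* was at 0.81 (WT) and 7.951 CPM (Y428F) with vehicle. Of the adipocyte and osteoblast markers, only *Fabp4* (26.89 and 6.569 CPM in WT and Y428F cells with vehicle) and *Runx2* (90.24 and 73.24 CPM) reached a mean of 1 CPM.

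PTH changed 6 of the 9 genes in WT cells and 6 in Y428F cells, and 8 of the 9 differed between the lines. In WT cells, *Ankrd1*, *Crim1*, *Nuak1* and *Thbs1* rose and *Nuak2* and *Cit* fell, at an adjusted p under 0.05 in edgeR's quasi-likelihood test. Of all genes tested, 13.4% were called in this comparison, 7.42% as higher and 6.01% as lower. In Y428F cells, *Ankrd1*, *Crim1*, *Nuak1*, *F3* and *Thbs1* rose and *Cit* fell, against 12.4% of all genes called, 6.61% as higher and 5.78% as lower. With vehicle, *Ankrd1*, *Nuak1*, *Nuak2*, *Cit* and *Shank2* were higher in Y428F cells than in WT cells and *Axl*, *F3* and *Thbs1* were lower, where 45.1% of all genes were called, 22.4% as higher and 22.7% as lower. With PTH, the same 5 genes were higher and the same 3 were lower, against 45.7% of all genes, 22.8% as higher and 23% as lower. The study's choice of *Nuak2*, *Cit* and *Shank2* from these same libraries enters both counts of higher genes. Among the 12038 genes that averaged 1 CPM or more, which include all 9, the called shares were 19.3%, 17.9%, 59.6% and 60.2% in these 4 comparisons. The 2 responses to PTH differed from each other for 1 gene, *F3*, against 0.413% of all genes tested (0.17% with the greater log2 value in Y428F cells and 0.243% with the smaller) and 0.606% of those of at least 1 CPM. An unadjusted p under 0.05 was found for 4 of the 9 in this comparison, against 7.05% of all genes, and none passed a limit of 0.01 on the adjusted p with a log2 limit of 0.3, against 0.124%.

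The median log2 fold change of the 9 genes with PTH was 0.12 in WT cells and 0.34 in Y428F cells, beside -0.02 and -0.01 over all genes tested. Between the lines it was 0.50 with vehicle and 0.29 with PTH, beside 0.01 and 0.02. *Shank2* (2.02 with vehicle), *Cit* (1.29) and *Nuak2* (0.50) enter these medians and were picked by the study from the same libraries. The medians between the lines are therefore not independent of that choice. The other genes with vehicle were at 0.67 (*Ankrd1*), 0.53 (*Nuak1*), 0.12 (*Crim1*), -0.37 (*Axl*), -0.63 (*Thbs1*) and -1.12 (*F3*). The 4 comparisons share libraries (each group enters 2 of them), so that a high vehicle value lowers a response to PTH and raises or lowers a difference between the lines at the same time.

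**Figure D1:**
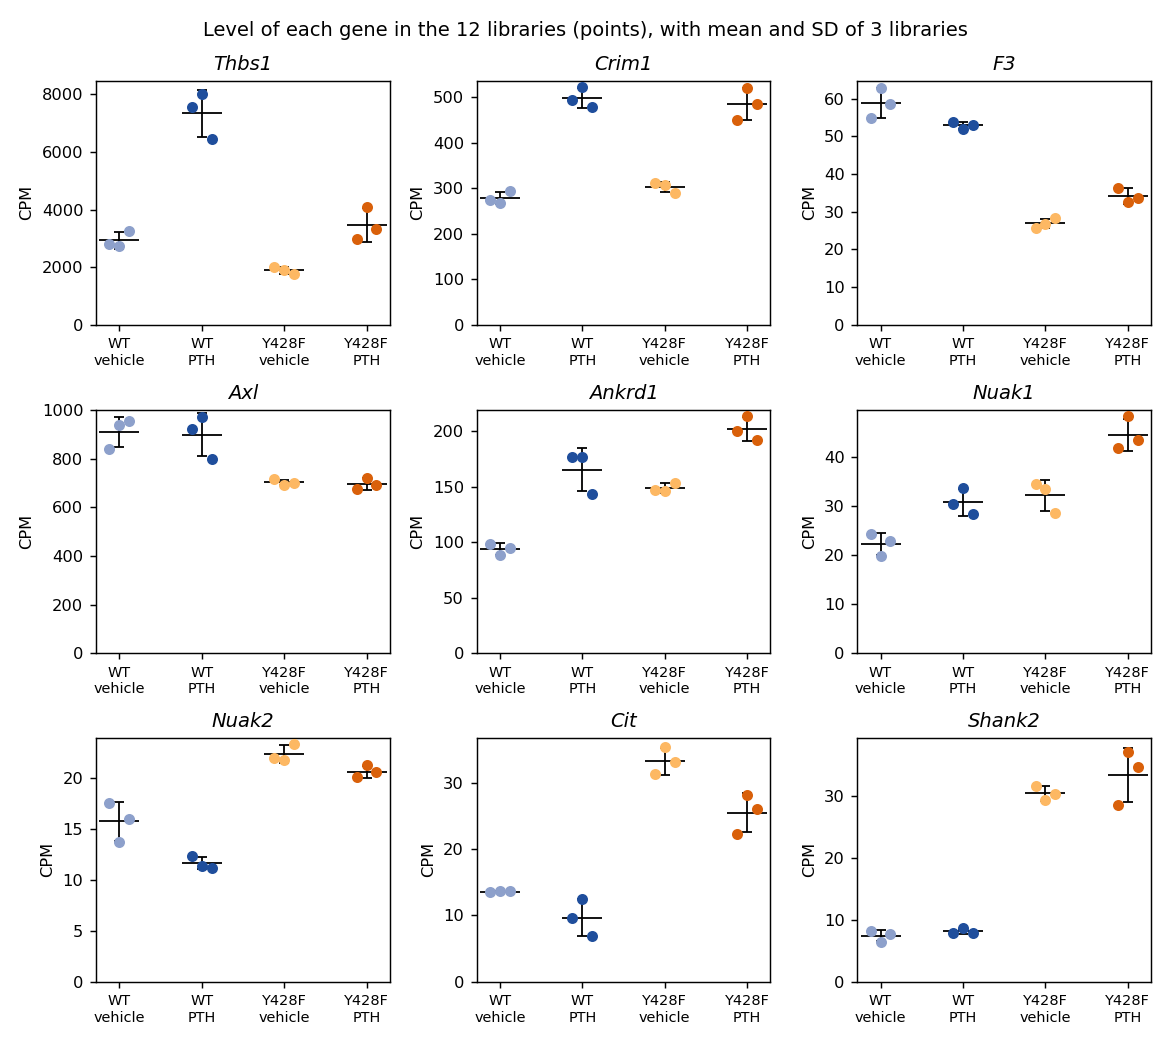
Level of each of the 9 genes in CPM (linear axes from 0) in the 12 libraries, by cell line and treatment. Points are libraries, and the long dash and bars give the mean and SD of 3 libraries. *Thbs1* and *Crim1* are higher with PTH in both lines, *F3* and *Axl* are lower in Y428F cells, and *Cit* and *Shank2* are higher in Y428F cells with either treatment.

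Per kilobase of exon, the genes fell into a wide order of levels. In WT cells with vehicle, *Thbs1* stood at 453 ± 45.2 CPM per kilobase (SD, n = 3) and *Axl* at 99.2 ± 6.83. *Crim1* (40.3 ± 1.97), *Ankrd1* (31.4 ± 1.71) and *F3* (19 ± 1.27) followed. *Nuak1* (3.89 ± 0.404 CPM per kilobase) and *Nuak2* (3.57 ± 0.445) differed by less than their spread. *Cit* (0.779 ± 0.00566) and *Shank2* (0.483 ± 0.0604) were the lowest, 938 times below *Thbs1* for *Shank2*. In Y428F cells with vehicle, *Cit* (1.9 ± 0.117) and *Shank2* (1.97 ± 0.0755) differed by less than their spread and *Ankrd1* (49.8 ± 1.42) stood above *Crim1* (43.6 ± 1.69). Dividing by the longest transcript in place of all exons left *Thbs1* and *Axl* on top, and placed *Nuak2* (5.04 CPM per kilobase) above *Nuak1* (3.94) in WT cells with vehicle.

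The stretch around 1 start site of each gene was searched for short DNA motifs, because TEAD factors bind the letters GGAATG. Windows of 300 bases (250 before and 50 from the start site of the Ensembl canonical transcript, GRCm39) were read on both strands. The windows of *F3*, *Cit* and *Shank2* lie wholly inside the gene bounds given below, because other transcripts of these genes start further upstream. GGAATG was found in 4 of the 9 windows, those of *Axl*, *Crim1*, *Nuak2* and *Cit*, while 14% of the 21770 windows of all protein-coding genes held it. The AP-1 letters TGACTCA were found in 2 of the 9, *F3* and *Thbs1*, against 4.7% of all windows. The CRE core TGACG, which lies within the full CRE TGACGTCA and is bound by CREB, was found in 1 (*Nuak1*), against 22.6%. The full CRE (2.44% of all windows), the EGR letters GCGTGGGCG (0.753%) and the CArG box of SRF (1.54%) were found in none. The windows of *Ankrd1* and *Shank2* held none of these letters. A match is a description of sequence and not a measured binding site, and no match says only that the letters are not in this window.

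The 250 bases upstream of the canonical start site are shown for 4 genes, 5′ to 3′ on the strand of the gene. They were chosen because they hold the TEAD letters (*Axl*, *Nuak2*) or the AP-1 letters (*F3*, *Thbs1*). All of the *F3* bases and the last of the *Nuak2* bases lie inside the gene bounds given below. Capitals mark GGAATG or its reverse complement CATTCC, and TGACTCA or its reverse complement TGAGTCA. They are from GRCm39, at chr7:25488330-25488579 (minus strand), chr1:132243614-132243863 (plus), chr3:121516936-121517185 (plus) and chr2:117941724-117941973 (plus).
Axl: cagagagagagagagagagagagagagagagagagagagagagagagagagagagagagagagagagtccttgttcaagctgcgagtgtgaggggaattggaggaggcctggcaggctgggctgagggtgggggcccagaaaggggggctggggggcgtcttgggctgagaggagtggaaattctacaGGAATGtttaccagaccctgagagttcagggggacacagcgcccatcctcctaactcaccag
Nuak2: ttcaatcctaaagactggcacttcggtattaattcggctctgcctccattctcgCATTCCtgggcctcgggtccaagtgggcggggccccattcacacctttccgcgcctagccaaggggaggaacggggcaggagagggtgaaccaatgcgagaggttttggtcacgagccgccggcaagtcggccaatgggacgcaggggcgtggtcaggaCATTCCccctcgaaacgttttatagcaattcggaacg
F3: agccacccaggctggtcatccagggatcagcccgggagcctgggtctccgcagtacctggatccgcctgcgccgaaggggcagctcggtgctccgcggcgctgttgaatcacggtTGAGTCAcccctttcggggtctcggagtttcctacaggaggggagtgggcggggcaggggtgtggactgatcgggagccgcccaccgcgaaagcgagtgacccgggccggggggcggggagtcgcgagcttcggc
Thbs1: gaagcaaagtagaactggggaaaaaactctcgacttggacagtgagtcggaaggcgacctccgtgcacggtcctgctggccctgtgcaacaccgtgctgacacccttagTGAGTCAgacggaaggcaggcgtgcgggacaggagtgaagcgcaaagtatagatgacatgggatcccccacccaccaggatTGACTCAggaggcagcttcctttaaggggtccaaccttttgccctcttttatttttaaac
The first base of the match lay at -62 in *Axl*, at -196 and -37 in *Nuak2*, at -135 in *F3* and at -141 and -60 in *Thbs1*, counted from the start site.

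*Thbs1* encodes thrombospondin-1, a secreted glycoprotein that binds cells through CD47 and CD36 and can activate latent TGF-β. It was the most abundant of the 9 genes in every group (ENSMUSG00000040152.9, chr2:117941974-117957616, plus strand). In WT cells it stood at 2790, 2730 and 3263 CPM with vehicle and at 7562, 8005 and 6439 CPM with PTH. All PTH libraries were above all vehicle libraries, and the fold change was 2.51 (log2 1.32, SE 0.1, adjusted p = 1.32e-08, edgeR's quasi-likelihood test, Benjamini-Hochberg method over all genes tested). In Y428F cells it stood at 2005, 1904 and 1774 CPM with vehicle and at 2964, 4102 and 3322 CPM with PTH, again without overlap, a fold change of 1.83 (log2 0.87, adjusted p = 5.94e-06). Over all genes tested, such a separation of the libraries with PTH and vehicle was found for 26.4% in WT cells and 30.8% in Y428F cells, and one between the lines for 53.8% with vehicle and 51.9% with PTH. The level of *Thbs1* was lower in Y428F cells with vehicle (log2 -0.63, adjusted p = 2.4e-05) and with PTH (log2 -1.08, adjusted p = 1.63e-08). The response of Y428F cells less that of WT cells was -0.45 on the log2 scale (95% interval -0.75 to -0.16), which was not past the threshold after adjustment (adjusted p = 0.325 in edgeR's quasi-likelihood test). It was past it in the fit without library 2 of Y428F cells with PTH, the highest of its group, at -0.60 (adjusted p = 0.029). With all 12 libraries and no filter on low counts it was past it as well, at -0.45 (adjusted p = 7.88e-05, same test).

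Among the relatives and receptors of thrombospondin-1, *Thbs2* with vehicle was at 577.4 CPM in WT cells and at 197.9 CPM in Y428F cells (log2 -1.54, adjusted p = 4.22e-11, edgeR's quasi-likelihood test). With PTH it was not called in WT cells (log2 -0.02) and fell in Y428F cells by 0.31 on the log2 scale (adjusted p = 0.0356). *Thbs3* was not called in WT cells either (log2 -0.15) and fell in Y428F cells by 0.27 (adjusted p = 0.0387). *Thbs4* was at 0 in all libraries. The receptor gene *Cd47* was called in none of the comparisons, with 97.29 to 111.8 CPM as group means, and *Cd36* was scarce, with group means from 0.384 to 1.618 CPM.

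*Crim1* encodes a membrane protein with cysteine-rich repeats that binds bone morphogenetic proteins (ENSMUSG00000024074.9, chr17:78507601-78684021, plus strand). WT cells had 273.8, 268.3 and 294.2 CPM with vehicle and 493.4, 522.1 and 478.5 CPM with PTH. Y428F cells had 310.9, 306.4 and 288.8 CPM with vehicle and 450.2, 519.7 and 484.1 CPM with PTH. Within each treatment the lines overlapped, while in each line all PTH libraries were above all vehicle libraries. *Crim1* rose 1.79-fold in WT cells (log2 0.84, SE 0.062, adjusted p = 8.75e-09, edgeR's quasi-likelihood test) and 1.6-fold in Y428F cells (log2 0.68, adjusted p = 2.63e-07). It was the 1 gene of the 9 not called between the lines, with log2 differences of 0.12 with vehicle (adjusted p = 0.139) and -0.04 with PTH (adjusted p = 0.641), and the first was called when libraries were scaled by their totals alone (0.17, adjusted p = 0.018). The 2 responses differed by -0.15 (95% interval -0.34 to 0.03). Its gene body overlaps by 7381 bp that of *Fez2*, on the opposite strand, and the strand setting of the counting is not given in the sources used here. Of its ligands, *Bmp4* had 1 to 7 counts in each WT library and 478 to 509 counts in Y428F libraries with vehicle (26.19 CPM), and *Bmp7* was at 0 throughout.

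*F3* encodes tissue factor, the membrane receptor of factor VII that starts coagulation (ENSMUSG00000028128.14, chr3:121516610-121528820, plus strand). WT cells had 54.95, 62.79 and 58.54 CPM with vehicle and 53.65, 51.92 and 53.11 CPM with PTH. Y428F cells had 25.8, 26.84 and 28.23 CPM with vehicle and 36.38, 32.45 and 33.6 CPM with PTH. Every WT library was above every Y428F library, and within each line the treatments did not overlap, in opposite directions. With vehicle the level in Y428F cells was lower by 1.12 on the log2 scale (adjusted p = 4.42e-11, edgeR's quasi-likelihood test), and with PTH the log2 difference was -0.63 (adjusted p = 1.96e-07). *F3* rose in Y428F cells (log2 0.34, SE 0.072, adjusted p = 0.00317) and was not called in WT cells (log2 -0.15, adjusted p = 0.161). The responses differed by 0.49 (SE 0.099, 95% interval 0.29 to 0.70, adjusted p = 0.0271). This difference ranged from 0.44 to 0.53 over fits that each lacked 1 library, and its adjusted p from 0.0136 to 0.116, above 0.05 in 9 of the 12 fits.

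*Tfpi*, the secreted inhibitor of the tissue factor pathway, was higher in Y428F cells with vehicle, at 38.38 against 26.25 CPM (log2 0.55, adjusted p = 2.43e-06, edgeR's quasi-likelihood test). It was not called with PTH in either line (log2 -0.07 and 0.05). *F2r*, which encodes the thrombin receptor PAR1, rose with PTH by log2 0.35 in WT cells (adjusted p = 0.000331) and 0.36 in Y428F cells (adjusted p = 0.000256). The coagulation factor genes *F7* and *F10* and the second inhibitor gene *Tfpi2* did not reach the minimum count.

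*Axl* encodes a receptor tyrosine kinase of the TAM family, whose ligand is GAS6 (ENSMUSG00000002602.17, chr7:25456535-25488329, minus strand). WT cells had 839.1, 937.7 and 955.4 CPM with vehicle and 921.5, 972.8 and 800.8 CPM with PTH. Y428F cells had 714.9, 692.3 and 699.8 CPM with vehicle and 673.8, 722.5 and 693.5 CPM with PTH. The treatments overlapped in both lines, and all WT libraries were above all Y428F libraries. With PTH the log2 fold change was -0.02 in WT cells (95% interval -0.16 to 0.12) and -0.01 in Y428F cells (-0.15 to 0.13). Between the lines it was -0.37 with vehicle (adjusted p = 0.000101, edgeR's quasi-likelihood test) and -0.37 with PTH (adjusted p = 0.000125).

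The ligand gene *Gas6* went the other way between the lines. With vehicle it stood at 2.426 CPM in WT cells and at 45.31 CPM in Y428F cells (40 to 52 and 770 to 902 counts), a log2 difference of 4.22 (adjusted p = 6.35e-16, edgeR's quasi-likelihood test). *Mertk*, a second TAM receptor, was lower in Y428F cells (28.91 against 7.545 CPM, log2 -1.93, adjusted p = 3.82e-12), and *Tyro3*, the other member of that family, was not called (log2 -0.06, adjusted p = 0.433). *Pros1*, which encodes the alternative ligand protein S, was lower (log2 -0.42, adjusted p = 1.03e-05). With PTH, *Mertk* fell in WT cells by 0.31 on the log2 scale (adjusted p = 0.0295), and *Gas6*, *Tyro3* and *Pros1* were not called in either line.

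**Figure D2:**
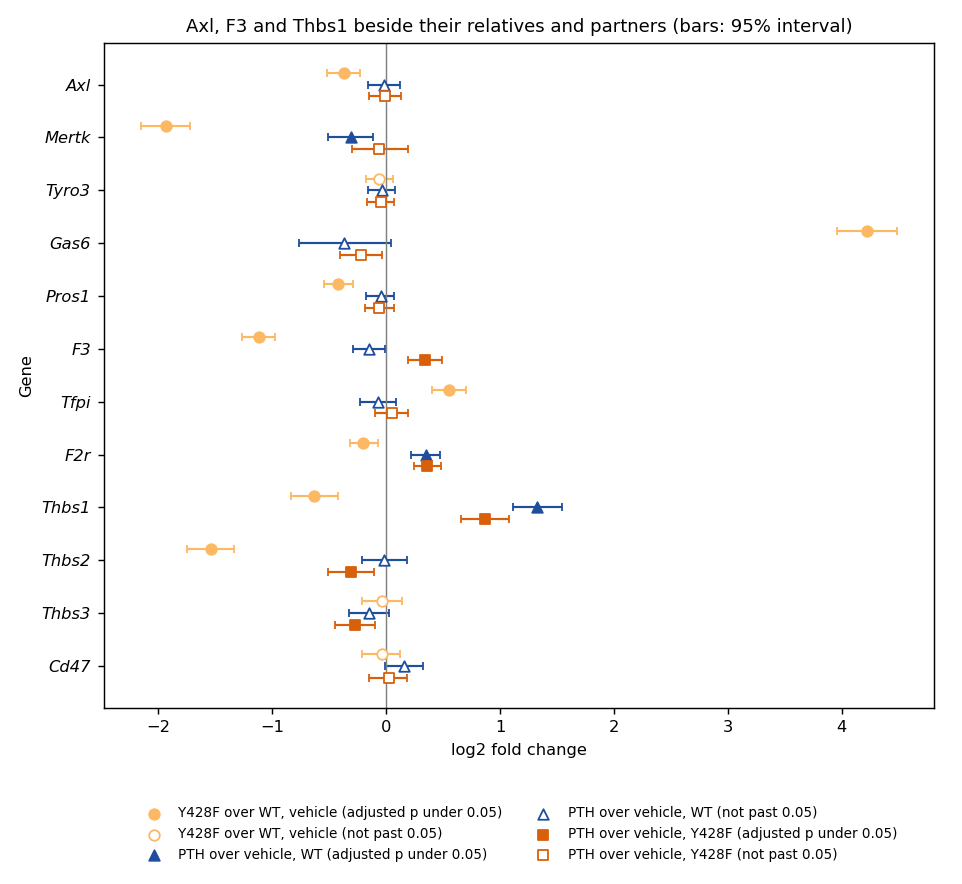
Log2 fold changes (horizontal axis) of *Axl*, *F3* and *Thbs1* and of their relatives, ligands and receptors (rows), for Y428F over WT cells with vehicle and for PTH over vehicle in each line. Bars are 95% intervals, and filled symbols passed an adjusted p under 0.05. *Gas6* lies at 4.22 for Y428F over WT, while *Mertk* (-1.93), *Thbs2* (-1.54) and *F3* (-1.12) lie on the other side of 0.

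*Ankrd1* encodes a nuclear and sarcomeric ankyrin repeat protein that is known as a stretch-responsive cofactor (ENSMUSG00000024803.10, chr19:36089352-36097506, minus strand). WT cells had 98.48, 88.32 and 94.44 CPM with vehicle and 176.6, 176.4 and 143.2 CPM with PTH. Y428F cells had 146.8, 145.7 and 153.6 CPM with vehicle and 199.9, 213.3 and 191.7 CPM with PTH. The Y428F vehicle libraries lay within the range of the WT libraries with PTH, and the other pairs of groups did not overlap. *Ankrd1* rose 1.76-fold in WT cells (log2 0.82, SE 0.073, adjusted p = 1.22e-07, edgeR's quasi-likelihood test) and 1.36-fold in Y428F cells (log2 0.44, adjusted p = 0.000267). It was higher in Y428F cells with vehicle (log2 0.67, adjusted p = 1.79e-07) and with PTH (log2 0.29, adjusted p = 0.0023), the latter with an adjusted p of 0.124 once a trend with transcript length was removed and of 0.056 with a GC trend removed. The responses differed by -0.38 (95% interval -0.59 to -0.17, adjusted p = 0.169), which was past the threshold in the fit without library 3 of WT cells with PTH, the lowest of its group (-0.47, adjusted p = 0.00845). With all 12 libraries and no filter on low counts this difference was past the threshold as well (-0.37, adjusted p = 0.00594, same test). The sarcomeric relatives of *Ankrd1* were scarce. *Ankrd23* stood at 1.391 CPM or lower in every group, *Ankrd2* did not reach the minimum count, and *Ttn*, which encodes the titin to which these proteins bind, was at 1.855 CPM in WT cells and 3.491 CPM in Y428F cells under vehicle (log2 0.90, adjusted p = 0.0151).

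*Nuak1* and *Nuak2* encode kinases related to AMPK, which are activated by LKB1 (*Stk11*) and act on the myosin phosphatase. *Nuak1* (ENSMUSG00000020032.15, chr10:84206769-84276569, minus strand) stood at 24.33, 19.79 and 22.86 CPM in WT cells with vehicle and at 30.42, 33.77 and 28.36 CPM with PTH. In Y428F cells it stood at 34.56, 33.52 and 28.67 CPM with vehicle and at 41.93, 48.33 and 43.46 CPM with PTH. The WT libraries with vehicle were the lowest and the Y428F libraries with PTH the highest, while WT libraries with PTH and Y428F libraries with vehicle overlapped. *Nuak1* rose in both lines, log2 0.46 in WT cells (adjusted p = 0.0025, edgeR's quasi-likelihood test) and 0.47 in Y428F cells (adjusted p = 0.00169), with a difference of 0.00 (95% interval -0.28 to 0.29). It was higher in Y428F cells by 0.53 with either treatment (adjusted p = 0.000109 with vehicle and 7.06e-05 with PTH).

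*Nuak2* (ENSMUSG00000009772.16, chr1:132243853-132261226, plus strand) moved against its paralog in WT cells. It stood at 17.61, 13.71 and 15.99 CPM with vehicle and at 12.38, 11.38 and 11.24 CPM with PTH, and fell by 0.44 on the log2 scale (SE 0.099, adjusted p = 0.0051, edgeR's quasi-likelihood test). In Y428F cells it stood at 22.02, 21.79 and 23.37 CPM with vehicle and at 20.13, 21.28 and 20.6 CPM with PTH, where the groups did not overlap but the log2 fold change of -0.12 was not past the threshold (adjusted p = 0.498). All Y428F libraries were above all WT libraries, by 0.50 with vehicle (adjusted p = 0.00013) and 0.82 with PTH (adjusted p = 5.03e-07). The responses differed by 0.32 (95% interval 0.04 to 0.60, adjusted p = 0.63). Of the genes around these kinases, *Ppp1r12a*, the myosin phosphatase subunit, rose with PTH in WT cells (log2 0.81, adjusted p = 2.99e-07) and in Y428F cells (0.39, adjusted p = 0.00131). *Stk11* was called in none of the comparisons (log2 -0.13 and -0.12 with PTH).

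**Figure D3:**
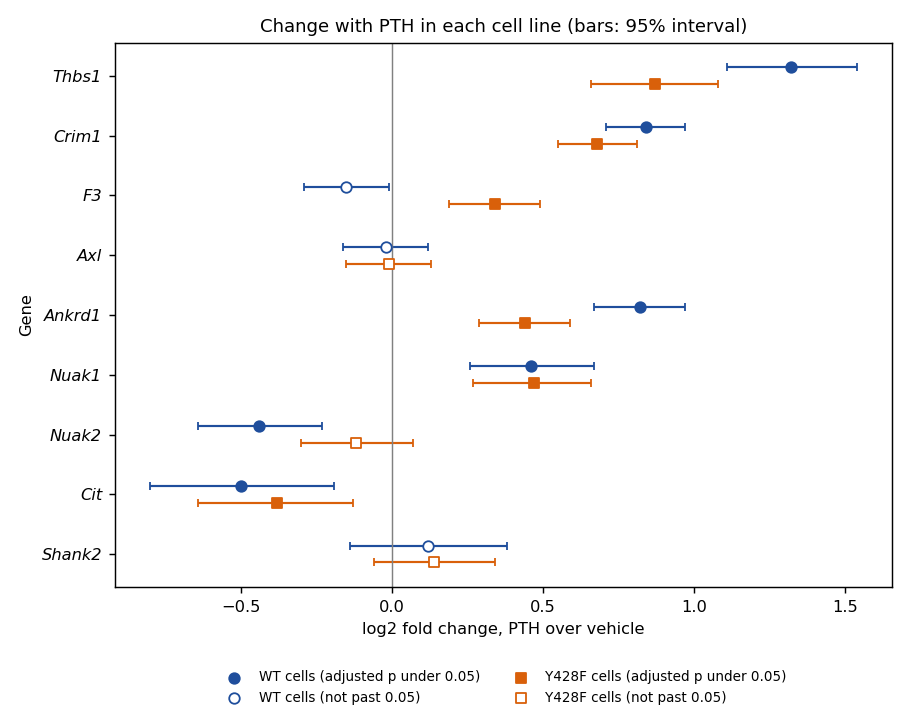
Log2 fold change of each gene with PTH over vehicle (horizontal axis) in WT cells (circles) and Y428F cells (squares), with 95% intervals. Filled symbols passed an adjusted p under 0.05. *Thbs1* has the largest values (1.32 and 0.87), *Axl* lies near 0 in both lines, and *F3* lies on opposite sides of 0 (-0.15 and 0.34).

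*Cit* encodes citron kinase, which acts at the midbody in cytokinesis (ENSMUSG00000029516.20, chr5:115983289-116147006, plus strand). WT cells had 13.49, 13.59 and 13.68 CPM with vehicle and 9.669, 12.43 and 6.871 CPM with PTH. Y428F cells had 31.22, 35.29 and 33.15 CPM with vehicle and 22.3, 28.12 and 26 CPM with PTH. All Y428F libraries were above all WT libraries, and in each line all PTH libraries were below all vehicle libraries. Between the lines the log2 differences were 1.29 with vehicle (adjusted p = 5.54e-08, edgeR's quasi-likelihood test) and 1.40 with PTH (adjusted p = 4.24e-08). With PTH it fell in both lines, by 0.50 on the log2 scale in WT cells (SE 0.15, adjusted p = 0.0271) and by 0.38 in Y428F cells (SE 0.12, adjusted p = 0.046). These falls were near the threshold. In WT cells the adjusted p was 0.0841 with a GC trend removed, 0.0632 in a fit of the WT libraries alone, 0.058 and 0.073 without vehicle library 2 or 3, and 0.079 and 0.133 without PTH library 1 or 3 (log2 -0.3 in the last). In Y428F cells it was 0.175 with a GC trend removed, and between 0.059 and 0.185 in the 7 fits that lacked WT vehicle library 3, WT PTH library 1, any of the 3 Y428F vehicle libraries, or Y428F PTH library 1 or 3.

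Genes of mitosis and cytokinesis stood with *Cit* between the lines. All 12 of the listed genes, such as *Aurkb*, *Top2a* and *Cenpf*, were higher in Y428F cells with vehicle and with PTH, with a median log2 difference of 1.06 and 1.23, where 45.1% and 45.7% of all genes were called. The largest differences with vehicle were 1.62 for *Aurkb* (20.18 against 62.16 CPM), 1.39 for *Top2a*, 1.39 for *Cenpf* and 1.22 for both *Cdk1* and *Mki67*. The summed level of the 12 genes was 763.5 to 892.4 CPM in WT libraries and 1790 to 1801 CPM in Y428F libraries with vehicle, and the part of this in the *Cit* difference was not tested. Of the partners of citron kinase at the midbody, *Kif14* (log2 0.91, adjusted p = 8.24e-07, edgeR's quasi-likelihood test) and *Anln*, which encodes anillin (0.99, adjusted p = 2.38e-10), were higher as well. With PTH, 2 of the 12 genes fell in WT cells, *Plk1* (log2 -0.41, adjusted p = 0.00152) and *Aurkb* (-0.32, adjusted p = 0.0222), beside 13.4% of all genes called, and none passed the threshold in Y428F cells by edgeR (12.4% of all genes). An unadjusted p under 0.05 was found for 6 of the 12 in each line, against 25.3% of all genes in WT cells and 24.4% in Y428F cells, and DESeq2 called 2 and 1. *Anln* rose with PTH (log2 0.32 in WT and 0.31 in Y428F cells), against the fall of *Cit*.

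**Figure D4:**
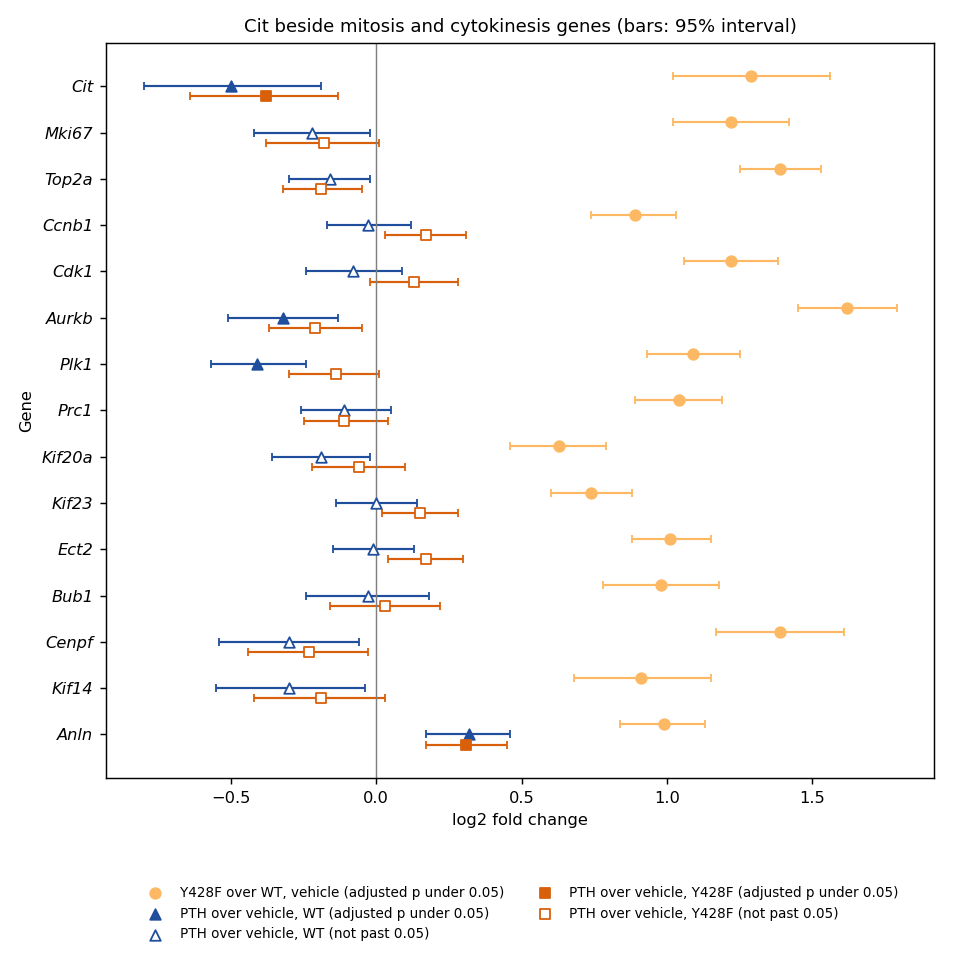
Log2 fold changes (horizontal axis) of *Cit*, 12 mitosis and cytokinesis genes, *Kif14* and *Anln* (rows) for Y428F over WT cells with vehicle and for PTH over vehicle in each line, with 95% intervals. Filled symbols passed an adjusted p under 0.05. All 15 genes lie above 0 for Y428F over WT, *Cit* at 1.29. With PTH in WT cells, *Cit* (-0.50), *Plk1* (-0.41) and *Aurkb* (-0.32) lie below 0 and *Anln* (0.32) lies above it.

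*Shank2* encodes a scaffold protein best known from the postsynaptic density, which binds HOMER proteins and the exchange factor β-PIX (*Arhgef7*). It lies on chromosome 7 (ENSMUSG00000037541.23, chr7:143532669-143979779, plus strand). WT cells had 8.251, 6.427 and 7.674 CPM with vehicle and 7.782, 8.612 and 7.919 CPM with PTH, and Y428F cells had 31.55, 29.22 and 30.25 CPM with vehicle and 28.56, 36.99 and 34.59 CPM with PTH. The treatments overlapped in both lines, and the lowest Y428F library was above the highest WT library by more than the spread of either. Its log2 difference between the lines was the largest of the 9 genes, 2.02 with vehicle (adjusted p = 5.04e-12, edgeR's quasi-likelihood test) and 2.04 with PTH (adjusted p = 4.17e-12). With PTH the log2 fold change was 0.12 in WT cells (95% interval -0.14 to 0.38) and 0.14 in Y428F cells (-0.06 to 0.34). *Shank1* and *Shank3* had means below 0.2 CPM in every group and neuronal markers were near 0, the most abundant being *Syt1*. *Homer1* rose with PTH (log2 1.01 in WT and 0.66 in Y428F cells, adjusted p = 3.41e-07 and 5.54e-05), and *Arhgef7* was lower in Y428F cells with vehicle (log2 -0.29, adjusted p = 0.000974).

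**Figure D5:**
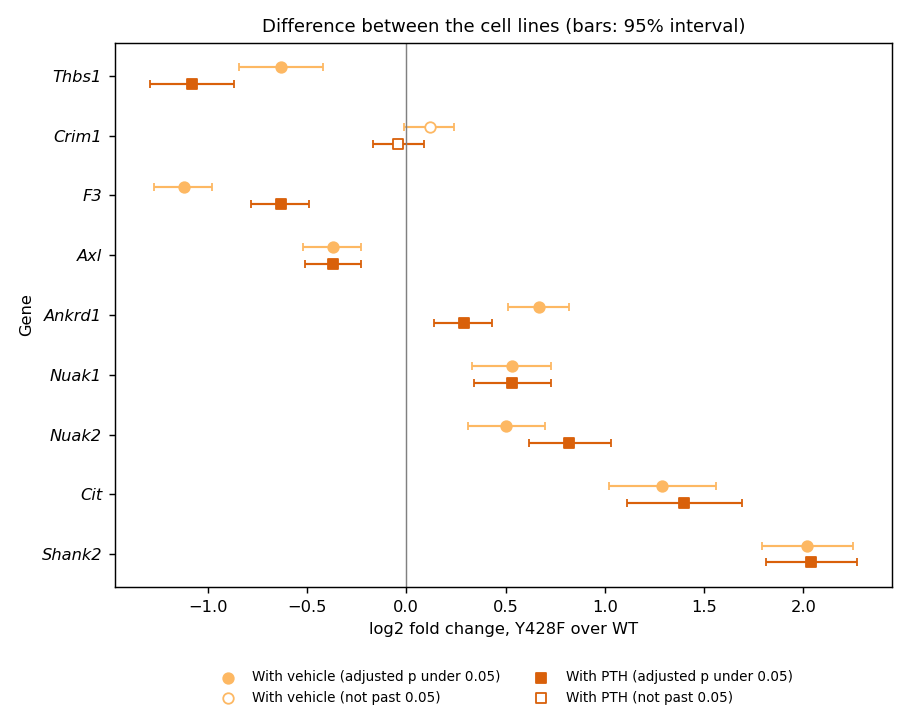
Log2 fold change of each gene in Y428F over WT cells (horizontal axis) with vehicle (circles) and with PTH (squares), with 95% intervals. Filled symbols passed an adjusted p under 0.05. *Shank2* (2.02 and 2.04) and *Cit* (1.29 and 1.40) lie highest, *F3* (-1.12 and -0.63) and *Thbs1* (-0.63 and -1.08) lowest, and *Crim1* near 0.

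The genes beside each of the 9 on its chromosome were compared between the lines. Among genes of at least 1 CPM within 1 Mb, the median log2 difference with vehicle was 0.50 over 10 neighbours of *Ankrd1*, beside 0.67 for *Ankrd1* itself. These 10 neighbours ranged from -0.97 to 1.34, and the median over chromosome 19, which carries them, was 0.11. The median was 0.19 over 12 neighbours of *Nuak1* and 0.33 over 18 neighbours of *Thbs1*, which itself was at -0.63. The neighbours of *Shank2* (22 genes), *Cit* (28 genes) and *F3* (12 genes) had medians of 0.04, 0.13 and 0.24, beside 2.02, 1.29 and -1.12 for the genes themselves. The neighbours of *Axl* (25 genes), *Crim1* (13 genes) and *Nuak2* (18 genes) had medians of -0.14, 0.05 and 0.11. Single neighbours were spread around these medians, from -0.53 to 0.74 beside *Nuak2* and from -1.37 to 5.06 beside *Axl*. Among the whole chromosomes that carry the 9 genes, the median was highest for chromosome 10, that of *Nuak1*, at 0.25. It was lowest for chromosome 3, that of *F3*, at -0.19.

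Other genes counted as YAP targets were followed in the same fit. Of 17 listed genes 16 were tested, and with PTH 6 rose and 1 fell in each line, where 13.4% and 12.4% of all genes were called. The largest in WT cells were *Ccn2* (log2 1.98 in WT and 2.04 in Y428F cells), *Ccn1* (1.07 and 0.62), *Gadd45a* (-0.75 and -0.51) and the Hippo kinase gene *Lats2* (0.68 and 0.75). Between the lines with vehicle 5 were higher and 5 were lower, where 45.1% of all genes tested and 59.6% of those of at least 1 CPM were called. *Ccn2* was at 1.86, with *Fjx1* (-1.53), *Ccdc80* (-1.18) and *Rbms3* (-0.82) on the other side. Of 15 genes of the Hippo core, 8 rose and none fell with PTH in WT cells, and the same counts were found in Y428F cells. In these comparisons 13.4% and 12.4% of all genes tested were called, and 19.3% and 17.9% of those of at least 1 CPM. *Lats2* is in both lists and is counted in each. *Tead4* had the largest of these values in WT cells (1.14, and 0.55 in Y428F cells), followed by *Tead1* (0.78 and 0.72). Between the lines with vehicle 6 were higher and 5 lower, where 45.1% of all genes tested and 59.6% of those of at least 1 CPM were called. *Tead4* was at 1.08 and *Vgll4*, which encodes a competitor of YAP for TEAD, at -0.48. In edgeR's quasi-likelihood test of the difference between the 2 responses, no gene passed the threshold in either list or among 26 relatives and partners of the 9 genes. Unadjusted p-values under 0.05 were found for 2 other YAP targets, 2 Hippo core genes and 5 relatives and partners, against 7.05% of all genes, and DESeq2 called 1, 0 and 1 of these lists and 124 of all 17691 genes.

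Of the 26 tested relatives and partners, 8 rose and 1 fell with PTH in WT cells, and 6 rose and 3 fell in Y428F cells, where 13.4% and 12.4% of all genes tested were called. Large values in WT cells were those of *Cd36* (log2 1.52, from 0.384 CPM), *Homer1* (1.01) and *Ppp1r12a* (0.81). Between the lines with vehicle 10 were higher and 5 were lower, where 45.1% of all genes tested and 59.6% of those of at least 1 CPM were called. Genes of the immediate early response, several of whose products bind the AP-1, EGR and SRF letters searched for above, were followed as well. Of 10 genes, 3 rose and 2 fell with PTH in WT cells and 4 rose and 1 fell in Y428F cells, beside the same 13.4% and 12.4% of all genes. *Srf* rose by 1.66 on the log2 scale in WT cells and by 1.22 in Y428F cells, responses that differed by -0.44 (adjusted p = 0.0456, edgeR's quasi-likelihood test). The other called values in WT cells were 0.87 for *Fosb* (from 1.83 CPM), 0.76 for *Nr4a1*, -0.35 for *Jun* and -0.30 for *Ier2*. In Y428F cells *Nr4a1* rose by 1.04 and *Jun* was at -0.38 (called), and *Fosb*, at 0.87, was not past the threshold. *Junb* and *Egr2* shared with *F3* a response that was higher in Y428F cells, by 0.69 (adjusted p = 0.0215) and 1.89 (adjusted p = 0.0289). *Egr2* was scarce, at 3.918 CPM with vehicle and 5.157 CPM with PTH in WT cells. In Y428F cells it was at 0.6749 CPM with vehicle (11 to 14 counts) and 3.336 CPM with PTH. *Junb* was not called in WT cells (log2 -0.13) and rose in Y428F cells (0.55).

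The genes whose log2 CPM followed each of the 9 most closely over the 12 libraries were found by Pearson correlation among 9088 genes of at least 10 CPM. The 12 points share 2 lines and 2 treatments, so these values describe the group pattern only. For *Crim1*, *Cit* and *Shank2* the 3 closest genes are named, and for each of the others only the closest. *Ankrd1* was followed by *Tead4* (r = 0.985), and *Crim1* by *Hipk3* (0.992), *Dusp3* (0.990) and *Vgll3* (0.986). *Thbs1* was followed by *Lima1* (0.984), *F3* by *Plekhf1* (0.990) and *Axl* by *Dnm2* (0.992). *Nuak1* and *Nuak2* had no gene in common among their closest, *Ptchd4* (0.986) and *Rfc2* (0.982). *Cit* was followed by *Brca2* (0.989), *Cyb5b* (0.986) and *Cenpe* (0.984), and *Shank2* by *Ptprq*, *Zfp469* and *Deptor* (0.996 each).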

How the data were processed

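Poly(A)-selected RNA of W-20 cells (12 libraries) was sequenced by the authors, mapped with STAR 2.7.10b to GRCm39 (GENCODE basic gene models) and counted with RSEM. They deposited expected counts per gene, not scaled for depth or gene length. The notes also name DESeq2, and the strand setting of the counting is not given in the sources used here. Groups came from the library titles.

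Counts were rounded to whole numbers, and genes whose total over the libraries reached 10 counts were fitted in R 4.3.3 with edgeR 4.0.16 (TMM, glmQLFit and glmQLFTest) in 1 model of 12 libraries and 4 groups, with Benjamini-Hochberg adjustment over 17691 genes and a threshold of 0.05. Intervals are 95% t intervals. The study used DESeq2 (1.42.0 here), which was an alternative, as were other scalings, filters, trends with transcript length and GC content, each line fitted alone, a stricter limit, the replicate block and each library left out. The tests were tried on simulated counts. Positions and lengths came from GRCm39 with GENCODE vM39, to which 56236 identifiers were matched and 744 were not. Replicates differed by more than counting noise (chi-square per degree of freedom 2.94 to 15.2).

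The 9 genes and the gene lists were chosen with earlier results of these data known. From each list, counts and up to 4 genes of at least 1 CPM with the largest called values were to be named, and other genes, such as direct ligands and receptors, were named after their values were seen. Lists covered other YAP targets, the Hippo core, relatives and partners, mitosis, the immediate early response and cell type markers. A gene that these rules would name is not reported here.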

Additional observations from a re-analysis of the deposited data

Results flagged for a closer look

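The response of *F3* to PTH differed between the lines by 0.49 on the log2 scale (Y428F minus WT, SE 0.099, adjusted p = 0.0271, edgeR's quasi-likelihood test), with estimates of opposite sign in the 2 lines. In WT cells the log2 fold change of -0.15 was not past the threshold (adjusted p = 0.161, and between -0.20 and -0.05 under other settings), although all 3 PTH libraries were below all 3 vehicle libraries, a separation found for 26.4% of all genes. In Y428F cells all 3 PTH libraries were above theirs (log2 0.34, adjusted p = 0.00317). The adjusted p was above 0.05 in 9 of the 12 fits that left out a library, up to 0.116 without vehicle library 1 of Y428F cells, and below it without vehicle library 1 or PTH library 3 of WT cells or PTH library 2 of Y428F cells. No test for single outlying libraries was made.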

How the results depend on the processing

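Over 45 combinations of gene and comparison, 9 genes in 5 comparisons, 370 of 378 values under other settings and 518 of 540 without 1 library kept their side of the threshold. Of these values, 5 and 14 turned sign, all of them called in neither fit and at most 0.11 from 0 on the log2 scale in the reported fit, such as *Axl* with PTH in WT cells (-0.02, from -0.08 to 0.06 without 1 library and from -0.07 to 0.08 under other settings), and 0 called values turned sign. The count of genes called for a difference in response to PTH moved from 1 to 3 without a filter on low counts (*F3*, *Ankrd1* at adjusted p = 0.00594 and *Thbs1* at 7.88e-05), and to 0 at an adjusted p under 0.01 with a log2 limit of 0.3. In the fits that each lacked 1 library it ranged from 0 to 2, that for PTH in WT cells from 5 to 6, that in Y428F cells from 5 to 6, and those between the lines stayed at 8. The ratio of the highest to the lowest level per kilobase in WT cells with vehicle moved from 938 to 665 with the longest transcript. Both ratios use the same CPM values and differ only in the lengths divided by. These were 15.434 and 10.536 kilobases for *Shank2*, and 6.458 and 6.233 kilobases for *Thbs1*. Over all genes, the count called for a difference in response moved from 73 to 216 without the filter and to 124 with DESeq2, and it lay between 24 and 89 without 1 library. It was 46 without vehicle library 3, 35 without PTH library 1 and 38 without PTH library 2 of WT cells, and 32, 31 and 38 without vehicle library 1, 2 or 3 and 24 without PTH library 3 of Y428F cells. The count called with PTH in Y428F cells moved from 2192 to 1435 without their vehicle library 1. The genes called lower moved there from 1022 to 616, 676 and 651 without vehicle library 1, vehicle library 2 or PTH library 1 of Y428F cells, and in WT cells from 1063 to 643, 666 and 675 without vehicle library 2, vehicle library 3 or PTH library 1. Other centrings moved the share of higher calls with PTH: in WT cells 1312 were higher and 1063 lower, against 956 and 1608 by library totals, 2172 and 763 with a length trend removed and 1916 and 599 with a GC trend removed, and in Y428F cells 1170 and 1022 against 888 and 1445, 2029 and 811, and 1530 and 560. None of these turned the sign of a called value of the 9 genes.

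Replicate numbers did not pair the libraries (mean correlation of deviations 0.006 over 18 same-numbered pairs, from -0.110 to 0.185), and with the replicate block the counts of the 9 genes called were 6, 6, 8, 8 and 1, as without it.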
